A study of Mus musculus with 10 samples.

Results

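Aldo-keto reductases and retinol-handling dehydrogenases were followed across the 5 groups of mouse embryonic fibroblast arrays. The set held 10 genes: Akr1c18, Akr1c12, Akr1c13, Akr1c14, Akr1b3, Akr1b8, Adh7, Adh1, Aldh1a1 and Aldh1a2. It was chosen on the values of Akr1c18 and Adh7, which rose with the drug: Akr1c18 in conditional knockout cells at 5 µM against none, and Adh7 in the treated conditional knockout cells against the other groups. Those values are therefore given as a description, with no test. Of the 10 genes, 9 had a probe set, a group of short probes against one transcript, and Akr1b3 was not matched. The 9 genes had 11 probe sets of the 45037 non-control probe sets, and 1 of the 11 reads Akr1c12 and Akr1c13 together. A probe set was tested where its highest group mean was at least 4 on the log2 scale. That left 7 member probe sets, 1 for each of 7 genes, among 20681 tested in all.

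The cells were mouse embryonic fibroblasts (MEF), either wild type (WT) or carrying a conditional Dicer knockout gene (CDKO). Dicer cuts microRNA precursors. CDKO cells were untreated or had 1 or 5 µM of hydroxytamoxifen for 4 days, WT cells were untreated or had 5 µM for 4 days, and each of the 5 groups had 2 arrays. Hydroxytamoxifen is an active form of tamoxifen that binds oestrogen receptors and is used to switch on Cre recombinases fused to such a receptor. The labels used here name no Cre, promoter, allele, clone, strain or embryo age. One label field calls all 10 samples conditional knockout cells, and the titles, which name 4 of them WT, were followed. Nothing in the labels tells whether a group's 2 arrays came from separate cultures, so p-values measure the spread between arrays, which may be technical. That spread was pooled over the 5 groups, which differed in it. The median standard deviation of a tested probe set was 0.099 and 0.072 in untreated and treated WT cells, and 0.29 to 0.34 in the CDKO groups. The p-values and SEs of WT comparisons thus draw largely on the wider CDKO spread.

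Aldo-keto reductases use NADPH to reduce carbonyl groups on sugars, steroids, prostaglandins and reactive aldehydes. Retinol is turned into retinoic acid in steps: alcohol dehydrogenases and short-chain dehydrogenases oxidise retinol to retinaldehyde, and retinaldehyde dehydrogenases of the Aldh1a group oxidise that to retinoic acid, which binds nuclear receptors. Several aldo-keto reductases can run the first step backwards, reducing retinaldehyde. In the mouse genome the Akr1c genes lie side by side, as do the Akr1b genes and the Adh genes.

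Arrays differed in ways that bear on the members. The 2 untreated WT arrays had high 18S ribosomal control signals, 11.6 and 11.2, as did replicate 2 of CDKO at 1 µM, 10.2, whereas the other arrays lay between 5.21 and 8.44. Their Gapdh 3′ minus 5′ signals, a sign of RNA or labelling quality, were 0.89 and 0.67, with 1.58 in that CDKO array and -0.31 to 0.07 in the others. Hence the drug and these signals cannot be told apart in WT cells. The hybridisation spike-ins fell into 2 levels, with replicate 2 of untreated CDKO, both CDKO arrays at 1 µM and replicate 2 of CDKO at 5 µM at the lower. Fibroblast markers were present, with 9 or 10 of 10 at or above 4 in every array. Their summed linear level was 168180 to 171960 in untreated WT, 125860 to 126470 in treated WT and 123000 to 174480 in untreated CDKO and at 1 µM. At 5 µM it was 82249 in replicate 1 of CDKO, the array with the highest Akr1c18 and the lowest Aldh1a2 value, and 139560 in replicate 2. Markers of other cells were present too. Of 12 macrophage and leukocyte markers 10 or 11 were at or above 4 in every array, and their summed linear level was 9037 to 9369 in untreated WT, 14913 to 15119 in treated WT and 1622.9 to 9545.7 in CDKO arrays. Such sums follow the brightest genes. Singly, 6 of the 11 tested were higher in treated than in untreated WT cells, with a median change of 0.22, and 0 passed in limma. Skeletal muscle markers summed to 571 to 648 in untreated WT, with 5 of 7 at or above 4, and to between 62.0 and 83.0 elsewhere, with 1 of 7. Epithelium markers summed to 1445 to 1510 in untreated WT and to 154 to 593 elsewhere. Adipocyte markers separated the lines, with sums of 2648 to 3199 in WT and 449 to 997 in CDKO arrays. In bulk RNA, a change in cell make-up and a change in RNA per cell cannot be told apart, and the part of these markers in the results below was not tested. The differences of the 2 Dicer1 probe sets at 5 µM were -1.32 and -1.62 in WT cells (limma, adjusted p = 0.0266 and 0.233) and -0.44 and -0.73 in CDKO cells. Whether these probes lie in the deleted part is not known.

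The promoters of the 4 genes with the largest changes with the drug are shown because their values followed dose and line in different ways. They are RefSeq sequences of build GRCm38.p6, 300 bases each, from 250 bases before to 50 after the annotated start, written 5′ to 3′ along the gene. Capitals mark matches on either strand to 4 motifs: TGACNNNGC, the antioxidant response element core, TGACTCA or TGAGTCA, the AP-1 site, AGGTCA, the nuclear receptor half-site, and GCGTG or its complement CACGC, the aryl hydrocarbon receptor core.
Akr1c18, chr13:4150597-4150896, minus strand: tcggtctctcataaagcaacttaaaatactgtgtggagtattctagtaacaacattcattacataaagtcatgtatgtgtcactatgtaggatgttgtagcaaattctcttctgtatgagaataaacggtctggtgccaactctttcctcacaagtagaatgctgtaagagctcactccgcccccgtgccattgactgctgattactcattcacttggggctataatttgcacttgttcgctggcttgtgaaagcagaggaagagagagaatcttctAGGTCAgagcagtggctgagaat
Akr1c14, chr13:4059341-4059640, plus strand: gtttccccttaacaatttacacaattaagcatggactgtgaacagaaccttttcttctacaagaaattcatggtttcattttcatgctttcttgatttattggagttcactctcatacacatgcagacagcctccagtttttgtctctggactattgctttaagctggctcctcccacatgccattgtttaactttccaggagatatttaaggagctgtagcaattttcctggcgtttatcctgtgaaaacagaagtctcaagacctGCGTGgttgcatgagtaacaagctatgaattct
Akr1b8, chr6:34353896-34354195, plus strand: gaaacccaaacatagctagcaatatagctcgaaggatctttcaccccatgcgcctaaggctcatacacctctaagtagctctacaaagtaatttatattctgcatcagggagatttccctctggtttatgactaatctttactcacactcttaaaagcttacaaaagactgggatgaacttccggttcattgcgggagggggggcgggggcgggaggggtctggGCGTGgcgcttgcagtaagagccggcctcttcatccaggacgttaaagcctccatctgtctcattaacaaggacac
Adh7, chr3:138217523-138217822, plus strand: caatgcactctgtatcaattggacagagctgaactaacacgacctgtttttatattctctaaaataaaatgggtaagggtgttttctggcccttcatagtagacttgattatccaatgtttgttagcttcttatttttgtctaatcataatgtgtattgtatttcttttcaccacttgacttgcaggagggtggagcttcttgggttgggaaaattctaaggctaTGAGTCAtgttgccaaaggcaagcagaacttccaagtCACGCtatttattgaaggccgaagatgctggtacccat
Positions are those of a match's first base in the window, with the start at 1. Akr1c18 held AGGTCA at position 28. Akr1c14 held GCGTG at position 18, and Akr1b8 held it at position -26 from the start. Adh7 held TGAGTCA at position -25 and CACGC at position 13. These are short motifs: of 32841 promoters of the same length, 12.4% held TGACNNNGC, 5.2% an AP-1 site, 16.3% the half-site and 32.4% the aryl hydrocarbon receptor core. The promoters of Akr1c12 and Akr1c13 matched at 284 of 304 aligned positions (93.4%), whereas other pairs among the 4 Akr1c members matched at 49.9% to 55.6%. None of the 4 motifs was found in the windows of Akr1c12, Akr1c13 and Adh1. TGACNNNGC was in none of the 4 windows shown. That of Aldh1a2 held it as TGACCGTGC at position -112, with GCGTG at -128, and that of the first Aldh1a1 start held TGACTCA at -57.

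Akr1c18 encodes the steroid dehydrogenase that inactivates progesterone. Its log2 values were 2.16 and 2.14 in untreated CDKO cells, 2.15 and 2.14 at 1 µM, and 7.38 and 5.91 at 5 µM. In WT cells they were 2.10 and 2.10 without drug and 4.89 and 5.47 at 5 µM. All 6 arrays without drug or at 1 µM lay near 2.1, a background level, and the 4 arrays at 5 µM lay above 4, whichever the line. In CDKO cells the difference at 5 µM was 4.49 ± 0.44 (log2, SE, n = 2 each), or 22.5-fold, and at 1 µM it was -0.0084. The first of these values chose the set. It was 5.22 between the arrays of the higher spike-in level and 3.77 between those of the lower. In WT cells Akr1c18 rose by 3.08 ± 0.44 (95% interval 2.04 to 4.12, higher in 2 of 2 treated arrays; limma, adjusted p = 0.0118). Akr1c18 was picked for rising with the drug, though on CDKO arrays, so this call is not taken as independent support. The probe set reached the minimum of 4 only in the 2 groups at 5 µM, so that it was tested at all rested on those groups, and with no filter the WT value was unchanged (limma, adjusted p = 0.0336). Both changes were measured from near background, so their sizes are uncertain. Leaving out any 1 of the 4 WT arrays ended the call, with adjusted p from 0.0715 to 0.115 and changes from 2.79 to 3.37 in limma. At 5 µM its level was 1.47 higher in CDKO than in WT cells, a description with no test.

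**Figure D1:**
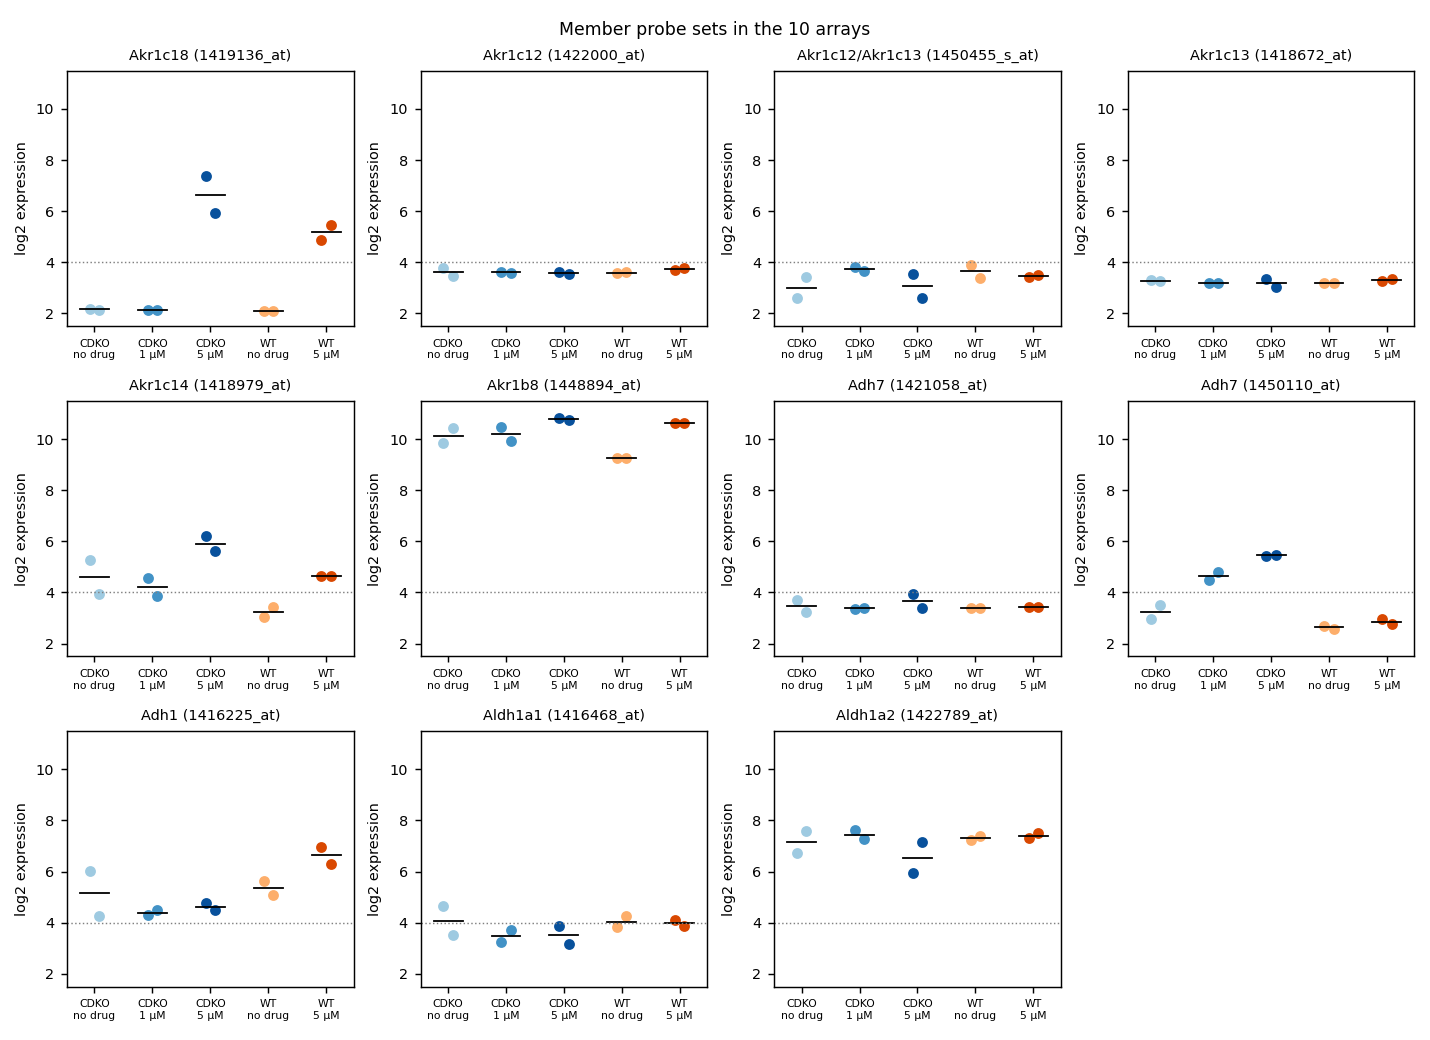
Log2 expression of the 11 member probe sets in each of the 10 arrays, 2 points per group with the group mean as a bar, and a dotted line at 4, the minimum for a test. Akr1c18 stood above 4 in the 4 arrays at 5 µM and near 2.1 in the other 6, whereas the tested Adh7 probe set stood above 4 in the 4 treated CDKO arrays.

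Akr1c14, its neighbour, encodes another steroid dehydrogenase. Its values were 5.28 and 3.95 in untreated CDKO cells, 4.57 and 3.86 at 1 µM and 6.19 and 5.60 at 5 µM. In WT cells they were 3.06 and 3.43 without drug and 4.66 and 4.65 at 5 µM. In each line the 5 µM values did not overlap the untreated ones, while those at 1 µM did. The CDKO difference at 5 µM was 1.28 ± 0.46 (log2, SE), 2.43-fold. The WT difference was 1.41 ± 0.46 (95% interval 0.33 to 2.49, before adjustment) and did not pass over all probe sets (limma, adjusted p = 0.0918). It passed with array weights (limma, adjusted p = 0.000303), with the spike-in level as a block (0.0368) and with only the WT groups fitted (0.00496). These settings called 12458, 2988 and 11308 probe sets over all, beside 1909 in the main fit, so passing there says little about this gene. CDKO cells were 1.37 ± 0.46 above WT without drug and 1.24 ± 0.46 above WT at 5 µM, and neither difference passed (limma, adjusted p = 0.123 and 0.254). With the spike-in level as a block the first was 1.85 and passed (limma, adjusted p = 0.0287). That setting called 2206 probe sets over all, beside 1360 in the main fit. All WT arrays were at the higher level, so the block leans on replicate 1 of untreated CDKO, also at that level. Without that replicate the first difference was 0.71 and did not pass. Without replicate 1 or 2 of untreated CDKO, the CDKO difference at 5 µM was 1.94 or 0.62.

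Akr1c12 and Akr1c13, which lie further along the same cluster and encode close relatives, were not tested, since no group mean reached 4. The Akr1c12 probe set lay between 3.45 and 3.77 in the 10 arrays and the Akr1c13 probe set between 3.04 and 3.33. The probe set shared by both genes ranged from 2.60 to 3.89, with overlapping groups at 5 µM and without drug in both lines, and is attributed to neither gene. The other genes of the cluster, Akr1c19, Akr1c6, Akr1c20 and Akr1c21, stayed below the minimum as well, with group means from 2.14 to 3.0. Akr1c14 and Akr1c18, the first genes in the order of the cluster, were thus the ones that reached 4 among the 8 Akr1c genes listed.

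Akr1b8 is an aldose reductase relative that reduces lipid aldehydes and retinaldehyde. Its values were 9.84 and 10.42 in untreated CDKO cells, 10.47 and 9.92 at 1 µM and 10.85 and 10.76 at 5 µM. In WT cells they were 9.27 and 9.27 without drug and 10.61 and 10.63 at 5 µM. It was expressed in all 10 arrays, with the untreated WT arrays lowest. It rose in WT cells by 1.35 ± 0.27 (log2, SE, 2.54-fold, 95% interval 0.72 to 1.98, higher in 2 of 2 arrays; limma, adjusted p = 0.0282). The call was lost with all probe sets tested (limma, adjusted p = 0.0503) and with the replicate number as a block (0.0511). It was also lost without any 1 of the 4 WT arrays, while the change kept to 1.34 to 1.36. In CDKO cells the difference at 5 µM was 0.67 ± 0.27, with 1.01 and 0.33 within the spike-in levels, and at 1 µM it was 0.064. Without replicate 1 of untreated CDKO the first of these was 0.38. The lines differed by 0.86 ± 0.27 without drug (95% interval 0.23 to 1.49; limma, adjusted p = 0.107), and by 0.57 without replicate 2 of untreated CDKO (0.312). At 5 µM they differed by 0.18 ± 0.27 (95% interval -0.45 to 0.81; limma, adjusted p = 0.838).

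The next gene in that cluster, Akr1b10, had group means of 8.73, 8.39 and 9.08 in CDKO cells at 0, 1 and 5 µM, and of 7.87 and 9.01 in WT cells at 0 and 5 µM. It followed the same order as Akr1b8 at the ends, lowest in untreated WT cells and highest in CDKO cells at 5 µM. Its WT difference of 1.14 ± 0.30 did not pass (limma, adjusted p = 0.058). It was named after its values were seen.

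Adh7 encodes the alcohol dehydrogenase with the highest activity on retinol. Its tested probe set read 2.94 and 3.53 in untreated CDKO cells, 4.49 and 4.78 at 1 µM and 5.44 and 5.46 at 5 µM. In WT cells it read 2.70 and 2.56 without drug and 2.95 and 2.76 at 5 µM. Only the 4 treated CDKO arrays lay above 4, and the 3 CDKO groups did not overlap. The differences were 1.40 ± 0.25 at 1 µM, 2.22 ± 0.25 at 5 µM and 0.81 ± 0.25 between these doses (log2, SE), and 2.14 for treated CDKO cells against the 3 other groups. They are a description, since the last of them chose the set. Within the spike-in levels the difference at 5 µM was 2.50 and 1.93. In WT cells it was 0.23 ± 0.25. The WT arrays had served as controls when Adh7 was picked, and both WT means, 2.63 and 2.85, lay below the minimum, so this value is also a description. The difference in response between the lines was not tested. The second Adh7 probe set did not share the pattern. It stayed between 3.24 and 3.95 in all 10 arrays, with no group mean of 4, and was not tested.

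**Figure D2:**
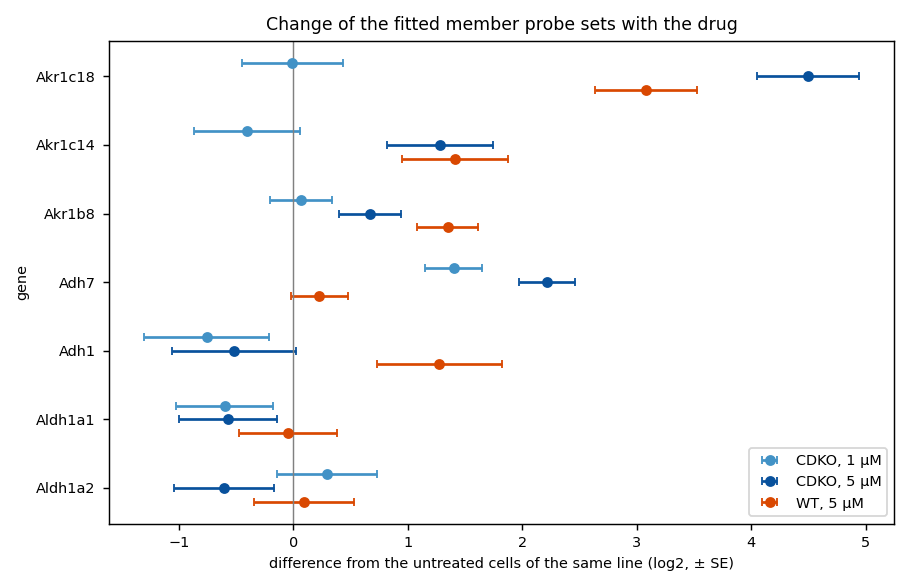
Difference of each of the 7 fitted member probe sets from the untreated cells of the same line, in log2 with its SE, for CDKO cells at 1 and 5 µM and WT cells at 5 µM (n = 2 arrays per group). Akr1c18 was 4.49 and 3.08 higher at 5 µM in CDKO and WT cells, whereas Adh7 was 2.22 and 0.23 higher.

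Adh1, the broad-range class I enzyme that also oxidises retinol, lies next to Adh7. Its values were 6.03 and 4.27 in untreated CDKO cells, 4.30 and 4.48 at 1 µM and 4.77 and 4.49 at 5 µM. In WT cells they were 5.64 and 5.09 without drug and 6.97 and 6.31 at 5 µM. The untreated CDKO arrays were far apart, the widest pair among the members. The WT difference was 1.28 ± 0.54 (95% interval 0.0011 to 2.55, before adjustment; higher in 2 of 2 arrays) and did not pass (limma, adjusted p = 0.163). It passed with array weights (limma, adjusted p = 0.00615) and with only the WT groups fitted (0.0369). Those settings called 12458 and 11308 probe sets over all, beside 1909 in the main fit. In CDKO cells the difference at 5 µM was -0.52 ± 0.54, with overlapping groups and opposite signs within the spike-in levels, -1.26 and 0.22. At 5 µM Adh1 was lower in CDKO than in WT cells by 2.01 ± 0.54, with both CDKO arrays below both WT arrays, which did not pass (-2.01; limma, adjusted p = 0.131). It passed without either untreated CDKO array. Neither array is part of this difference, which stayed at -2.01, and that wide pair then no longer entered the pooled spread. Adh7 and Adh1 thus stood in opposite order between the lines at 5 µM: Adh7 was 2.60 higher and Adh1 2.01 lower in level in CDKO cells, and the first is a description. Of the other genes in this cluster, Adh4 stayed between 2.19 and 2.22 in group means, and Adh5, which handles formaldehyde, between 11.87 and 12.24.

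**Figure D3:**
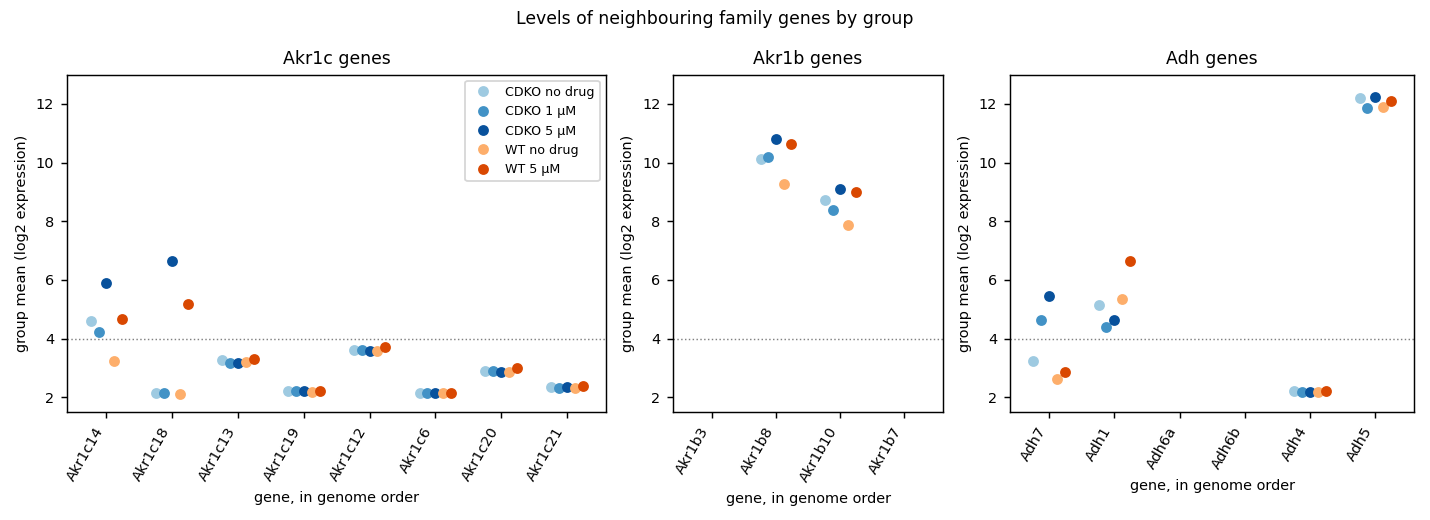
Group means (log2 expression, 2 arrays each) of the Akr1c, Akr1b and Adh genes in their order along the genome, with a dotted line at 4. Levels compare groups within a gene and not genes with each other, and genes with no points had no value in the lists used here; Akr1c18 and Akr1c14 are the Akr1c genes that exceed 4.

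Aldh1a1 and Aldh1a2 make retinoic acid from retinaldehyde. Aldh1a1 was near the minimum, with 4.66 and 3.50 in untreated CDKO cells, 3.26 and 3.69 at 1 µM and 3.86 and 3.16 at 5 µM. It had 3.82 and 4.25 in untreated and 4.12 and 3.85 in treated WT cells. Treated and untreated arrays overlapped in both lines, and the WT difference was -0.047 ± 0.43 (95% interval -1.04 to 0.95; limma, adjusted p = 0.959). Aldh1a2 had 6.72 and 7.58 in untreated CDKO cells, 7.61 and 7.28 at 1 µM and 5.93 and 7.16 at 5 µM. It had 7.25 and 7.38 in untreated and 7.31 and 7.51 in treated WT cells. The lowest value, 5.93, came from 1 array, replicate 1 of CDKO at 5 µM. The WT difference was 0.093 ± 0.44 (95% interval -0.93 to 1.12; limma, adjusted p = 0.918), and the CDKO difference at 5 µM was -0.61 ± 0.44 with overlapping groups. At 5 µM the CDKO mean was 0.86 ± 0.44 below the WT mean (-0.86; limma, adjusted p = 0.414). With the spike-in level as a block this difference was -1.38 and passed (limma, adjusted p = 0.0342). That setting called 944 probe sets over all, beside 372 in the main fit. All WT arrays were at the higher level, so the block leans on replicate 1 of CDKO at 5 µM, also at that level. The difference was -0.25 without that replicate and -1.48 without replicate 2, and passed in neither.

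Of the 5 tested members whose own values did not choose the set, 1 passed in WT cells, Akr1b8, beside 9.23% of all probe sets (1909 of 20681, of which 725 were higher). At an unadjusted p under 0.05 there were 3 of these 5 in limma, Akr1c14, Akr1b8 and Adh1, beside 30.6% of all probe sets. With any 1 WT array left out, 0 members passed. Between the lines without drug 0 of the 5 passed, beside 6.58% of all probe sets, and 2 of 5 had an unadjusted p under 0.05 in limma, beside 25% of all. At 5 µM 0 of 5 passed, beside 1.80%, with 2 of 5 at an unadjusted p under 0.05, beside 15.6%. In CDKO cells at 5 µM against none, the contrast that chose the set, 0.145% of all probe sets passed, and the members are given there by their values alone. Across the 10 arrays, the tested Akr1c and Akr1b members varied together, with Pearson r of 0.758 for Akr1c18 and Akr1c14, 0.741 for Akr1c18 and Akr1b8 and 0.76 for Akr1c14 and Akr1b8. Adh7 had r = 0.452 with Akr1c18, 0.596 with Akr1c14 and 0.569 with Akr1b8, and r = -0.667 with Adh1. Values of Akr1c18 and Adh7 chose the set, so r is a description. These values describe 10 arrays that share groups and spike-in levels.

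The genes most like Akr1c18 among 10625 candidates, by Pearson r over the 10 arrays, were Hsd17b7 (0.978), a sterol and oestrogen reductase, Selp (0.97), a leukocyte adhesion receptor, Serpinb2 (0.96), a plasminogen activator inhibitor, Retreg1 (0.958), a receptor for autophagy of the endoplasmic reticulum, and Prl8a9 (0.957), a prolactin relative. Hsd17b7 had group means of 9.89, 9.96 and 11.37 in CDKO cells at 0, 1 and 5 µM and 9.61 and 10.70 in WT cells, so the arrays at 5 µM again had the higher means. Serpinb2 had 3.66, 3.48 and 6.99 in CDKO cells and 2.90 and 6.30 in WT cells. The genes most like Adh7 were 5031439G07Rik (0.961), Slc20a1 (0.942), a phosphate transporter, Slc31a1 (0.938), a copper transporter, Atp6ap1 (0.931), an accessory subunit of the proton pump of lysosomes, and Thsd7a (0.931). Thsd7a had group means of 8.87, 9.61 and 10.16 in CDKO cells and 8.59 and 8.70 in WT cells, a rising order with dose in CDKO cells as for Adh7. The candidates were picked for their likeness, so r is a description.

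Other genes of these pathways were counted in the WT comparison, 1 probe set per gene, beside all 10632 genes tested this way, of which 368 (3.46%) rose and 508 (4.78%) fell, with a median change of -0.093. Of 14 other aldo-keto reductases 7 were tested and 1 rose, with a list median of 0.27. It was Kcnab1, a potassium channel subunit of that fold, by 1.58 (limma, adjusted p = 0.0199), and its second probe set rose as well (5.33; limma, adjusted p = 0.0488). Of 20 other alcohol and aldehyde dehydrogenases 14 were tested and 0 passed in limma, with a median of 0.26 and 4 (28.6%) at an unadjusted p under 0.05, beside 28.3% of all genes.

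Of 24 retinoid carriers, short-chain dehydrogenases and breakdown enzymes 8 were tested, 2 rose and 2 fell. Crabp2, which carries retinoic acid to its nuclear receptors, rose by 2.73 ± 0.42 (log2, SE; limma, adjusted p = 0.0141), from a group mean of 8.02 to 10.76, with 10.58, 10.44 and 11.04 in CDKO cells at 0, 1 and 5 µM. The untreated WT group was thus the one with low Crabp2. Dhrs4, a reductase of retinaldehyde and other carbonyls, rose by 1.74 (limma, adjusted p = 0.0225), while its other probe set changed by 0.29 and did not pass (0.686). In CDKO cells at 5 µM these probe sets were 0.077 higher and 0.51 lower. Dhrs3, which turns retinaldehyde back into retinol, fell by 1.86 (limma, adjusted p = 0.0442) and was 1.20 lower in CDKO cells at 5 µM. Rdh10, the main retinol dehydrogenase of the embryo, fell by 0.90 (limma, adjusted p = 0.0423) and by 1.07 with its second probe set (0.0418), against 0.086 higher and 0.35 lower in CDKO cells at 5 µM. Of 17 retinoid receptors and responsive genes 13 were tested and 1 fell, with a median of -0.18: Nrip1, a corepressor, by 1.13 (limma, adjusted p = 0.0296). Of its 5 tested probe sets, 1 other passed, also lower (-1.76; limma, adjusted p = 0.0179), and 1 had a change above 0, 0.41 (0.688). In CDKO cells at 5 µM the Nrip1 probe sets that passed in WT cells were 0.081 and 0.063 higher. Counts are by 1 probe set per gene, and 3 genes not counted had another probe set that passed: Rdh11, 1.99 higher (limma, adjusted p = 0.0135), Rdh14, 2.03 lower (-2.03, 0.0304), and Meis1, 1.89 lower (-1.89, 0.0123). The counted probe sets of Rdh11, Rdh14 and Meis1 changed by 0.61, 0.22 and -0.81 and did not pass. These genes, and Srxn1 below, were named after their values were seen. Leaving out any 1 WT array left 0 calls by the counted probe sets in both lists. The call of Dhrs3 was also lost without either untreated CDKO array (limma, adjusted p = 0.053) and, with that of Dhrs4, with no filter (0.115 and 0.0508), and that of Rdh10 with quantile normalization (0.06) and with trended robust variances (0.0545).

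**Figure D4:**
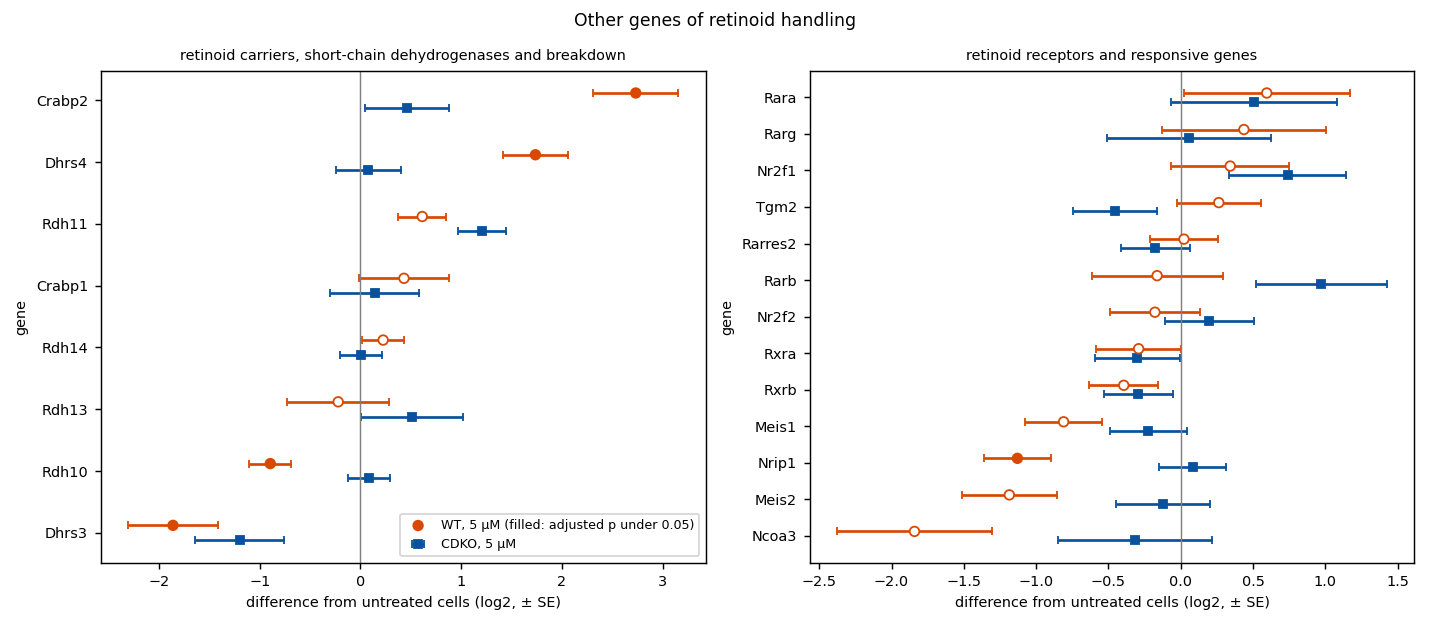
Difference at 5 µM from untreated cells, in log2 with its SE, of the tested genes of 2 retinoid lists in WT cells (circles, filled where the adjusted p was under 0.05) and CDKO cells (squares). Crabp2 and Dhrs4 rose and Rdh10, Dhrs3 and Nrip1 fell in WT cells.

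Of 31 genes of steroid and prostaglandin handling 16 were tested, 4 rose and 1 fell, with a median of 0.79. Hsd17b12, an enzyme of fatty acid elongation, rose by 2.17 (limma, adjusted p = 0.0329), while its second probe set changed by 3.39 and did not pass (0.0753). Hsd3b7, a bile acid synthesis enzyme, rose by 1.34 (limma, adjusted p = 0.0184). Cyp11a1, which makes pregnenolone from cholesterol, rose by 1.11 (limma, adjusted p = 0.0186), to a group mean of 4.33 from 3.21. Hsd17b7 also rose, by 1.09 (limma, adjusted p = 0.0329). Its other probe sets changed by 2.22 and 2.78 and did not pass (0.054 and 0.0625). Hpgd, which inactivates prostaglandins, fell by 1.58 (limma, adjusted p = 0.0145), from 4.46 to 2.88. Its means in CDKO cells at 0, 1 and 5 µM were 2.96, 2.74 and 2.87, so untreated WT was the group that stood apart. At 5 µM in CDKO cells Hsd17b12, Hsd3b7 and Hsd17b7 were 0.90, 0.74 and 1.48 higher, while Cyp11a1 and Hpgd were 0.057 and 0.089 lower. Cyp11a1 and Hpgd each reached the minimum of 4 in 1 group only, the higher of the 2 compared, so the filter favoured a difference, and the sizes are measured against background. With no filter their adjusted p was 0.00934 and 0.0213 in limma. Without replicate 2 of untreated WT cells 1 call of this list was left, and without any other WT array 0. Of 14 polyol pathway and sugar reduction genes 11 were tested and 1 rose, the fructose kinase gene Khk, by 0.90 (limma, adjusted p = 0.0387). Of 15 NRF2 targets 14 were tested and 1 rose, Nqo1, a quinone reductase, by 1.75 ± 0.30 (limma, adjusted p = 0.018). Srxn1, which repairs peroxiredoxins, had another probe set that passed, 3.68 higher (limma, adjusted p = 0.0434), while the counted one changed by 1.20 and did not (0.0977), nor did the remaining one, 3.80 (0.0515). In CDKO cells at 5 µM the NRF2 list had a median difference of 1.37, with 13 of 14 above 0, beside -0.0081 and 5200 of 10632 over all genes. In WT cells it had 0.27, with 11 of 14 above 0, beside -0.093 and 4733 of 10632. Kcnab1, Khk and Nqo1 were 0.84, 0.72 and 2.55 higher in CDKO cells at 5 µM. The calls of Kcnab1, Khk and Nqo1 were lost when any 1 WT array was left out, that of Khk also with trended robust variances (limma, adjusted p = 0.0668), and that of Hsd17b12 with no filter (0.0892).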

How the data were processed

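The 10 arrays were Affymetrix mouse expression arrays. The deposited values are log2 expression, made by the authors with GCRMA, per the submitters' processing notes (version not stated there). GCRMA subtracts a background modelled from probe sequence, so values below 4 sit near that background and folds from them depend on it.

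The authors' log2 values were used as deposited. Groups came from the sample titles. All 45101 probe sets less 64 controls were filtered at a highest group mean of 4, and 20681 were fitted in limma 3.58.1 (R 4.3.3) with 5 group means, empirical Bayes and Benjamini-Hochberg adjustment over all of them, at 0.05. The intervals (95%) are not adjusted. Genes were named from the platform annotation, with symbols updated through gene IDs: 34945 probe sets had 1 symbol, 932 several and 9160 none listed. Each other gene was represented by its tested probe set of the highest mean. The members, lists and naming rule were chosen with earlier results of these data known. The rule named every member probe set, up to 4 called genes per list by size of change, the 5 genes most like Akr1c18 and Adh7, Dicer1 and Nqo1. Scripts were tested on simulated data. The alternatives were another or no filter, centring, quantile normalization, 1 probe set per gene, trended robust variances, array weights, fitting only the groups compared, the replicate number or the spike-in level as a block, and each array left out. Same-numbered arrays did not deviate together in every pair of groups (correlations from -0.453 to 0.431), so the numbers were not treated as pairs.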

Additional observations from a re-analysis of the deposited data

How the results depend on the processing

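In WT cells at 5 µM, the count of 2 members (Akr1b8, and Akr1c18, which helped choose the set) and 1909 probe sets became 1 and 1314 with no filter, 1 and 1190 with the replicate number as a block, 4 and 12458 with array weights, 4 and 11308 with only the groups compared, 3 and 2988 with the spike-in level as a block, and 2 and 962 with 1 probe set per gene. Leaving out 1 array gave 0 to 3 members and 65 to 4498 probe sets. Between untreated lines, 0 members and 1360 probe sets became 0 and 431 with 1 probe set per gene, 1 and 2206 with the spike-in block and 0 and 489 with only the groups compared, and 0 and 255 to 3217 without 1 array. Between lines at 5 µM, 0 and 372 became 0 and 157 with 1 probe set per gene, 0 and 197 with the replicate block, 1 and 944 with the spike-in block and 0 and 2 with only the groups compared, and 0 to 1 and 29 to 591 without 1 array. The number tested differed by setting, with 20681 probe sets in the main fit, 45037 with no filter and 10632 with 1 probe set per gene. The counts above are therefore not shares of the same total. Signs turned for small changes that had not passed. In WT cells Aldh1a1 changed by 0.072 with quantile normalization and by -0.26 to 0.17 without 1 array, and Aldh1a2 by -0.0053 to 0.19. Between untreated lines Adh1 differed by 0.30 with the spike-in block and by -1.10 to 0.67 without 1 array, Aldh1a1 by -0.53 to 0.62 and Aldh1a2 by -0.59 to 0.26. The cause of these changes was not tested. Of 333 recomputed member changes, those of Adh7 in WT cells among them, 302 kept their direction and call. Most of these had not passed in the main fit and still did not. Where the array left out was of a group not compared, the change itself could not move, so its direction was fixed. In 20 recomputations each, Akr1c18 kept its WT call in 16 and Akr1b8 in 14. Of 238 recomputed changes for the named genes of other lists 179 kept theirs, and the other 59 no longer passed. The replicate block ended the Akr1b8 call (limma, adjusted p = 0.0511), not that of Akr1c18, and those of Dhrs3, Rdh10, Nrip1 and Khk. The number of 2 arrays per group limits the precision. Leaving out an array leaves 1 in its group, whose spread is then taken from the other groups.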
